A study of Rattus norvegicus with 8 samples.

Results

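The annexins were first described as lipocortins, and 8 of their genes are studied here (Anxa1, Anxa2, Anxa3, Anxa4, Anxa5, Anxa6, Anxa7 and Anxa11). They were taken by the gene name that the array gives each probe. They are 8 of 13549 genes with a symbol and are read by 15 of the 41012 non-control probes of the Agilent Whole Rat Genome array, a 1-color array of 60-base oligonucleotides. Anxa8 and Anxa13 are also on the array and are given apart below, outside the family counts. Thymocytes, the immature lymphocytes of the thymus, came from adrenalectomized male Sprague-Dawley rats, with the thymi of 3 rats pooled for a preparation, and all groups share this source. Dexamethasone, a synthetic glucocorticoid that kills thymocytes by apoptosis, was added at 100 nM for 6 hours to the cultures of the 4 Dex arrays and left out of those of the 4 Control arrays. Adrenalectomy removes the animal's own corticosteroids, and a culture of whole thymus holds the other cells of the organ that pass the mesh. The design text gives 3 biological replicates for each group, and all 8 labeled arrays were used here. Nothing states that each array came from its own preparation, so p-values measure the spread between these arrays.

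Annexins bind phospholipid membranes when calcium rises. Anxa1 (lipocortin 1) is known as a glucocorticoid-induced mediator in leukocytes that acts through formyl peptide receptors and was first studied as an inhibitor of phospholipase A2. Anxa5 binds phosphatidylserine and is the protein used to stain apoptotic cells. The question here was which annexin transcripts differed between Dex and Control thymocytes.

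Of the 8 genes 0 passed limma's test at an adjusted p of 0.05, as 0.778% of all probes did, and 2 had an unadjusted p under 0.05, as 10.6% of all probes did. With the replicate number as a block 3 genes (Anxa1, Anxa5 and Anxa6) had an unadjusted p under 0.05, as 12.4% of all probes did, and 0 an adjusted p under 0.05. The signal to noise rule of the study's methods, which 6.79% of all probes passed, was met by 1 gene, Anxa6, an annexin linked to membrane and cytoskeleton. Its signal was lower in every Dex array than in every Control array, as for 4.51% of all probes, and by 0.55 on the log2 scale. Anxa5 had the largest difference, 0.73 higher in Dex, and Anxa1 was 0.56 higher, with Control and Dex arrays overlapping for both. Anxa7 differed by 0.038. The shares over all probes, here and below, include dim probes, while a gene is counted by its brightest probe. Counted in that way, limma called 141 of the 13549 genes with a symbol. Of these 13549, 1638 had an unadjusted p under 0.05 and 1184 passed the signal to noise rule. Each of these shares is larger than that over all probes. As a measure of the response in these cultures, the glucocorticoid target gene Tsc22d3, which encodes the leucine zipper protein GILZ, rose by 3.59.

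The probes are shown because a gene's value is that of an oligonucleotide at 1 place of its transcript, and 6 of the 8 genes are read at more than 1 place. The following sequences are those that the array gives, written 5′ to 3′ in lower case. Capitals mark a 9-letter run, GGNGANTAN, in which N is any base, chosen after reading these probes and searched on the strand as printed.
Anxa6 A_44_P996080: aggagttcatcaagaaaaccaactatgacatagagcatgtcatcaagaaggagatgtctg
Anxa5 A_44_P472994: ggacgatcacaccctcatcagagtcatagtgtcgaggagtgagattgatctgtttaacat
Anxa5 A_44_P472996: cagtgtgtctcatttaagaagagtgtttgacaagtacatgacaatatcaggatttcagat
Anxa1 A_44_P524359: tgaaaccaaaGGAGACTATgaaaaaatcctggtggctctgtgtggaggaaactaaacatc
Anxa2 A_42_P532103: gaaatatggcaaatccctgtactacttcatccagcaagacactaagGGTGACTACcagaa
Anxa4 A_44_P465660: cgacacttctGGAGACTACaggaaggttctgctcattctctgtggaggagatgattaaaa
Anxa7 A_44_P494242: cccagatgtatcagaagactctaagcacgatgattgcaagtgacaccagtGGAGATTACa
The run occurs in 4 of the 15 annexin probes, from 4 genes, and in 348 of all 41012 probes, or 0.849%. It is a description of shared letters and was not used in any test.

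Positions are given on build rn3, as in the scanner output. The Anxa6 probe above lies at chr10:40404307-40404366 on the minus strand, and the brighter Anxa6 probe, A_44_P996073, lies further along the gene at chr10:40397942-40398001. That brighter probe holds a stop codon in all 3 reading frames, the only one of the 15 that does. The Anxa5 probes lie at chr2:122895146-122895205 and chr2:122897167-122898371 on the minus strand, and the latter covers 1205 bases of genome for its 60 letters, so it crosses an intron. In all, 6 of the 15 annexin probes span more genome than their own length. The Anxa1 probe lies at chr1:223642741-223642800 and the Anxa4 probe at chr4:121135003-121135062, both on the minus strand. The Anxa2 probe lies at chr8:73952205-73952786 and the Anxa7 probe at chr15:4075590-4075649, both on the plus strand. Exon numbers and untranslated regions were not assigned, since no annotation of this build was used here.

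Values below are normalised log2 signals, log2 of the processed spot intensity after quantile normalization between arrays, and a difference of 1 is 2-fold. The brightest probe by mean signal stands for a gene, and levels of different genes are not compared, since probes differ in how well they bind. Between 60.7% and 84.1% of all probes were well above background on an array by the scanner software's own flag, and 0 probes were saturated. Control 1, Dex 1 and Dex 2 stood apart with 69.9%, 64.6% and 60.7%, against 80.8% or more on each of the other arrays. The arrays lay on 3 slides, with Control 1 and Dex 3 on slide 1, the other Control arrays on slide 2 and the other Dex arrays on slide 3. Slide and treatment can therefore be compared only through the difference of Dex 3 and Control 1. That is 1 array of each group, and the median of this difference over all probes was -0.092. Of all probes, limma called 319 at an adjusted p of 0.05 (0.778%), 231 higher and 88 lower in Dex. With the replicate number as a block the count was 81 (0.198%). Without Control 1, Dex 1 and Dex 2 it was 4671, with 2197 higher and 2474 lower in Dex. That fit sets Control 2, 3 and 4, all on slide 2, against Dex 3 on slide 1 and Dex 4 on slide 3. No slide then holds both groups, so slide and treatment cannot be told apart in it, here or for any gene below. The thymocyte markers were present, with all 11 measured (Cd3d, Cd8a, Rag1 and others) well above background on all 8 arrays. Of these 8 had a lower and 3 a higher mean in Dex, 0 were called by limma and 3 had an unadjusted p under 0.05 (27.3%, beside 10.6% of all probes). Of these 3, Ptcra, the pre-T cell receptor chain (-0.61), and Rag1 (-0.59) were lower and Cd8b (0.52, with Control 1 missing as an outlier spot) was higher in Dex, and Ptcra alone passed the signal to noise rule (9.09%, beside 6.79%). The part of these markers in the annexin values was not tested.

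Anxa1 was read by a pair of probes. By the brighter probe, A_43_P11614, Control arrays 1 to 4 gave 10.10, 10.31, 9.99 and 10.30, and Dex arrays 1 to 4 gave 11.09, 11.02, 10.01 and 10.82. Dex arrays 1, 2 and 4 lay above all Control arrays, while Dex 3 lay within the Control range, so the groups overlapped. The means were 10.17 ± 0.15 in Control and 10.74 ± 0.50 in Dex (SD, n = 4 each). The difference was 0.56 (SE 0.26, 95% interval -0.031 to 1.15) with a limma adjusted p of 0.50. A_44_P524359 gave 0.62 (SE 0.27, adjusted p = 0.47, unadjusted p = 0.049), and the values of the probes correlated at 0.98 over the 8 arrays. In each of the 4 same-numbered pairs the Dex array was higher, by 0.99, 0.72, 0.014 and 0.52. On slide 1, where both groups were present, Dex 3 was lower than Control 1 by the brighter probe (-0.093, beside a median of -0.092 over all probes). Without Control 1, Dex 1 and Dex 2 the difference was 0.21 (adjusted p = 0.64). RNA was taken from whole cultures, so fewer cells of a type and less RNA per cell cannot be told apart.

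Anxa1 is abundant in macrophages and neutrophils, and markers of these cells were therefore summed up beside it. The mean log2 signal of 11 macrophage markers ranged from 6.09 to 6.30 in Control and from 6.38 to 6.73 in Dex, with 7 of 11 higher in Dex and 0 called by limma. At an unadjusted p under 0.05 there were 3 (27.3%, beside 10.6% of all probes), and 1 passed the signal to noise rule (9.09%, beside 6.79%). Vsig4 was well above background on no array. The 3 were Mrc1, the mannose receptor, with the largest difference, 2.12 (adjusted p = 0.087), and the complement genes C1qb (0.84) and C1qc (0.97). Csf1r, the receptor that macrophages need for survival, differed by 0.12, and Cd14, a receptor for bacterial lipopolysaccharide, by -0.77 (adjusted p = 0.56). With the replicate number as a block Mrc1, C1qa, C1qb, C1qc and Cd14 had an unadjusted limma p under 0.05, as 12.4% of all probes did. Of these Cd14 alone was lower in Dex. The 9 neutrophil markers averaged 6.72 to 7.03 in Control and 6.78 to 7.40 in Dex, with 6 of 9 higher and 0 called by limma. Without the block 2 had an unadjusted p under 0.05 (22.2%), and the count with the block is not given here. The signal to noise rule was passed by 1 (11.1%), the defensin gene Np4 (1.01, adjusted p = 0.060). The part of these cells in the annexin values was not tested.

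Anxa5, the phosphatidylserine binder, gave 8.78, 8.22, 7.92 and 8.18 on Control arrays 1 to 4 by its brighter probe, and 9.26, 9.36, 8.66 and 8.72 on Dex arrays 1 to 4. Control 1 was the highest Control array and exceeded Dex 3 and Dex 4, while every other Control array lay below every Dex array. The SD was 0.36 in either group (n = 4 each), and the Control mean was 8.27. The difference was 0.73 (SE 0.25, 95% interval 0.14 to 1.31), or 1.65-fold, with a limma adjusted p of 0.34 and an unadjusted p of 0.021. At an unadjusted p under 0.05, 2 of the 8 genes (Anxa5 and Anxa6) were past the limit. The junction probe A_44_P472996 gave 0.66 (SE 0.34, adjusted p = 0.57) with the same order of groups. Dex was higher in 4 of 4 same-numbered pairs, by 0.48 to 1.14. On slide 1 Dex 3 was lower than Control 1 (-0.12, beside a median of -0.092 over all probes). In both groups the arrays with the fewest probes above background had the highest Anxa5 values, and without Control 1, Dex 1 and Dex 2 the difference was 0.58 (adjusted p = 0.073). With slide as a random block it was 0.87 (adjusted p = 0.044). In that fit the consensus correlation of arrays on a slide was negative (-0.24), and limma called 1838 of all probes, against 319 as fitted. Only slide 1 holds both groups, so its p-values do not separate slide from treatment.

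**Figure D1:**
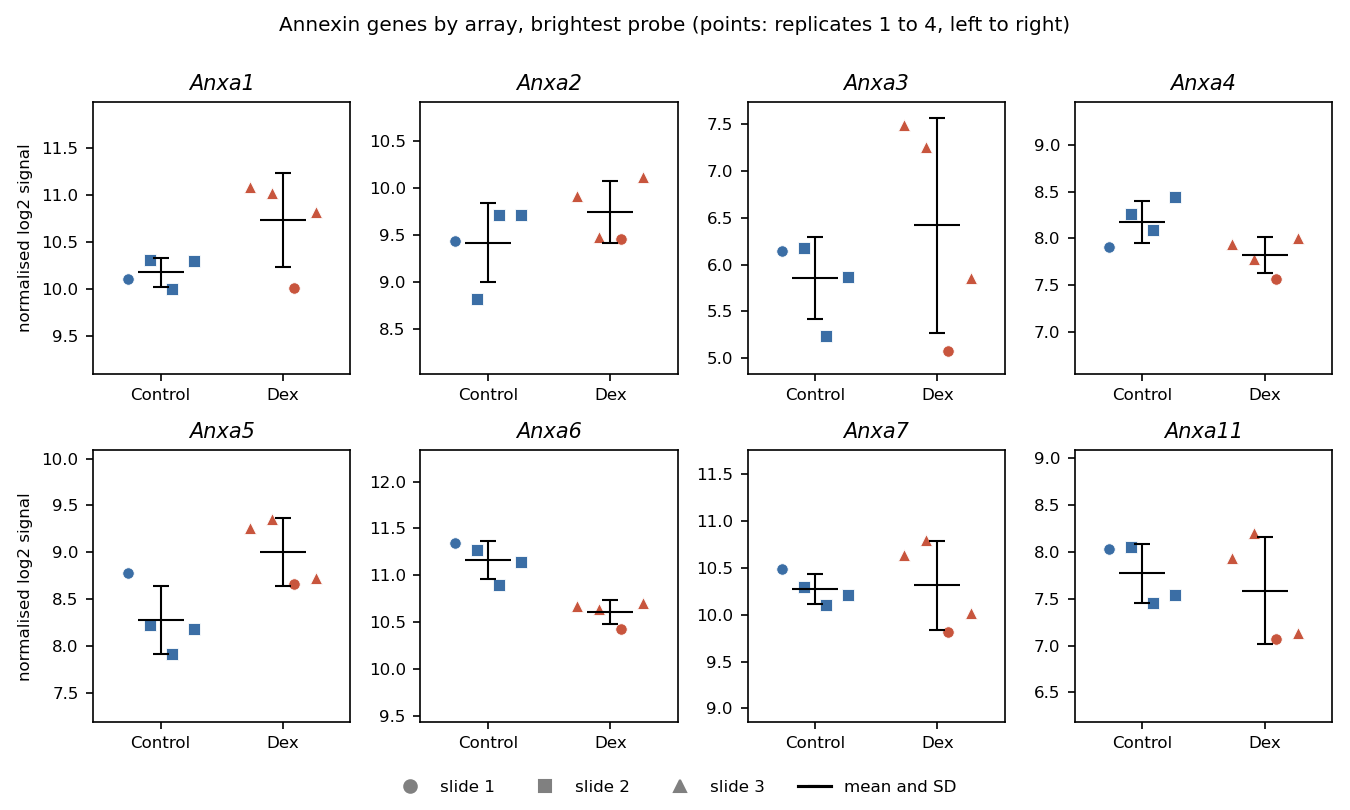
Normalised log2 signal (y axis) of the brightest probe of each annexin gene on 4 Control and 4 Dex arrays (x axis), with replicates 1 to 4 from left to right, shapes for slides, and bars for the mean and SD. Each panel spans the same number of log2 units. The Anxa6 groups did not overlap, Anxa5 groups overlapped through Control 1, and Anxa1 groups overlapped through Dex 3.

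Anxa6 by its brighter probe gave 11.34, 11.28, 10.89 and 11.15 on Control arrays 1 to 4, and 10.67, 10.65, 10.42 and 10.71 on Dex arrays 1 to 4. All Dex arrays lay below all Control arrays. The means were 11.16 ± 0.20 in Control and 10.61 ± 0.13 in Dex (SD, n = 4 each). The difference was -0.55 (SE 0.16, 95% interval -0.92 to -0.18), that is 1.47-fold lower in Dex, with a limma adjusted p of 0.24. It passed the signal to noise rule, which takes a nominal one-tailed p of 0.01 over the 70 assignments of the arrays and a 1.2-fold difference, with a permutation p of 0.0023. Within slide 1 the difference was -0.92, and without Control 1, Dex 1 and Dex 2 it was -0.54. In that last comparison Anxa6 no longer passed the signal to noise rule and Anxa5 did.

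The other Anxa6 probe, whose sequence is printed above, gave 8.57, 8.55, 8.23 and 8.52 in Control and 8.32, 8.36, 7.04 and 7.61 in Dex. Dex 1 and Dex 2 lay above the lowest Control array, so these groups overlapped. Its difference was -0.64 (SE 0.31, adjusted p = 0.53), and its values correlated with those of the brighter probe at 0.76 over the 8 arrays. The call for Anxa6 thus rested on the probe nearer to the end of the transcript, and neither the mean of both probes nor scaling by the 75th percentile passed the signal to noise rule.

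Anxa2 forms a membrane complex with S100a10, the p11 light chain. Its single probe gave 9.43, 8.81, 9.71 and 9.71 in Control and 9.91, 9.48, 9.45 and 10.12 in Dex. Control 2 was the lowest array and the groups overlapped, with a difference of 0.33 (SE 0.26, 95% interval -0.28 to 0.93, adjusted p = 0.73). It was 0.13 without Control 2 and 0.021 within slide 1. S100a10 went the other way, with 14.05, 13.91, 13.96 and 13.84 in Control and 13.37, 13.46, 13.09 and 13.29 in Dex. All Dex arrays lay below all Control arrays, and the difference of -0.64 (SE 0.15) passed the signal to noise rule, with a limma adjusted p of 0.13. The adjusted p was under 0.05 with normexp background correction (0.015). It was also under 0.05 with slide as a random block (0.028) and without Control 1, Dex 1 and Dex 2 (0.044), fits that do not separate slide from treatment. The adjusted p was 0.78 with the 75th percentile scaling, 0.27 with the replicate block and 0.19 to 0.35 with 1 array left out. The difference lay between -0.96 and -0.57 in all of these fits and with slide as a fixed block. The difference between Anxa2 and S100a10 in response was not tested. The RefSeq table of rat genes names 8 pseudogenes after Anxa2 and 4 after Anxa7, and whether the probes of these genes match them was not checked.

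Anxa4, found at epithelial and secretory membranes, gave 7.91, 8.26, 8.09 and 8.44 in Control and 7.95, 7.78, 7.57 and 8.01 in Dex by its brighter probe. Control 1 lay within the Dex range and the other Control arrays lay above all Dex arrays. The difference was -0.35 (SE 0.18, 95% interval -0.77 to 0.063, adjusted p = 0.56), and the second probe gave -0.29. The direction was the same within slide 1 (-0.35) and without Control 1, Dex 1 and Dex 2 (-0.48).

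Anxa3, a myeloid annexin, had the widest spread among the Dex arrays of the family. Its brightest probe gave 6.14, 6.18, 5.24 and 5.87 in Control and 7.49, 7.25, 5.08 and 5.85 in Dex. Dex 1 and Dex 2 were the highest arrays, while Dex 3 was the lowest of all 8. The difference was 0.56 (SE 0.54, 95% interval -0.68 to 1.81, adjusted p = 0.78), and the other probes gave 0.62 and 0.68. The last of these was well above background on 2 Control and 3 Dex arrays. The sign turned within slide 1 (-1.06) and without Control 1, Dex 1 and Dex 2 (-0.30), so no direction was set for Anxa3.

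Anxa7 (synexin), a membrane fusion protein that binds the calcium sensor sorcin, gave 10.49, 10.30, 10.11 and 10.21 in Control and 10.64, 10.80, 9.81 and 10.01 in Dex. The Dex arrays lay on both sides of the Control range, and the difference was 0.038 (SE 0.25, 95% interval -0.54 to 0.61, adjusted p = 0.97). Its second probe was tighter and gave 0.0022 (95% interval -0.35 to 0.35). Anxa11, which binds S100a6 and the calcium sensor Pdcd6, gave 8.04, 8.05, 7.46 and 7.54 in Control and 7.94, 8.20, 7.07 and 7.14 in Dex. The groups overlapped, with a difference of -0.18 (SE 0.31, 95% interval -0.89 to 0.52, adjusted p = 0.88). Without Control 1, Dex 1 and Dex 2 the differences were -0.29 for Anxa7 (adjusted p = 0.24) and -0.58 for Anxa11 (adjusted p = 0.14).

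**Figure D2:**
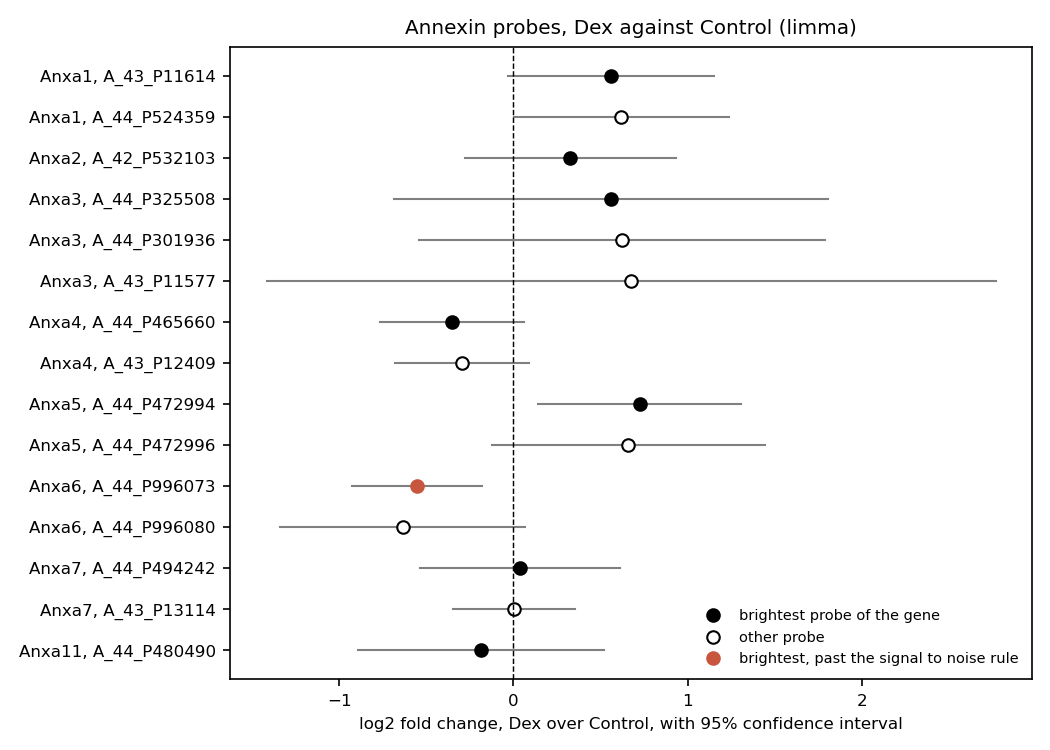
Difference of Dex and Control on the log2 scale (x axis) with its 95% confidence interval for each of the 15 annexin probes (y axis), by limma over all 8 arrays. Filled points are the brightest probe of a gene, open points the others, and the colored point is the Anxa6 probe that passed the signal to noise rule. The probes of a gene lay on the same side of 0 in all 6 genes that have more than 1.

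Across the family 5 genes had a higher and 3 a lower mean in Dex, with a median difference of 0.18 and a median absolute difference of 0.45. Over all 13549 genes with a symbol the corresponding medians were 0.0094 and 0.25. At the level of probes, 3 of 15 had an unadjusted p under 0.05, 1 passed the signal to noise rule and 0 were called by limma, beside 10.6%, 6.79% and 0.778% of all probes. The median SD over the 8 genes was 0.27 in Control and 0.42 in Dex, beside 0.28 and 0.50 over all probes, and Anxa3, Anxa1, Anxa7 and Anxa11, 4 of the 8 (50%), had the larger SD in Dex, as 75.4% of all probes did.

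**Figure D3:**
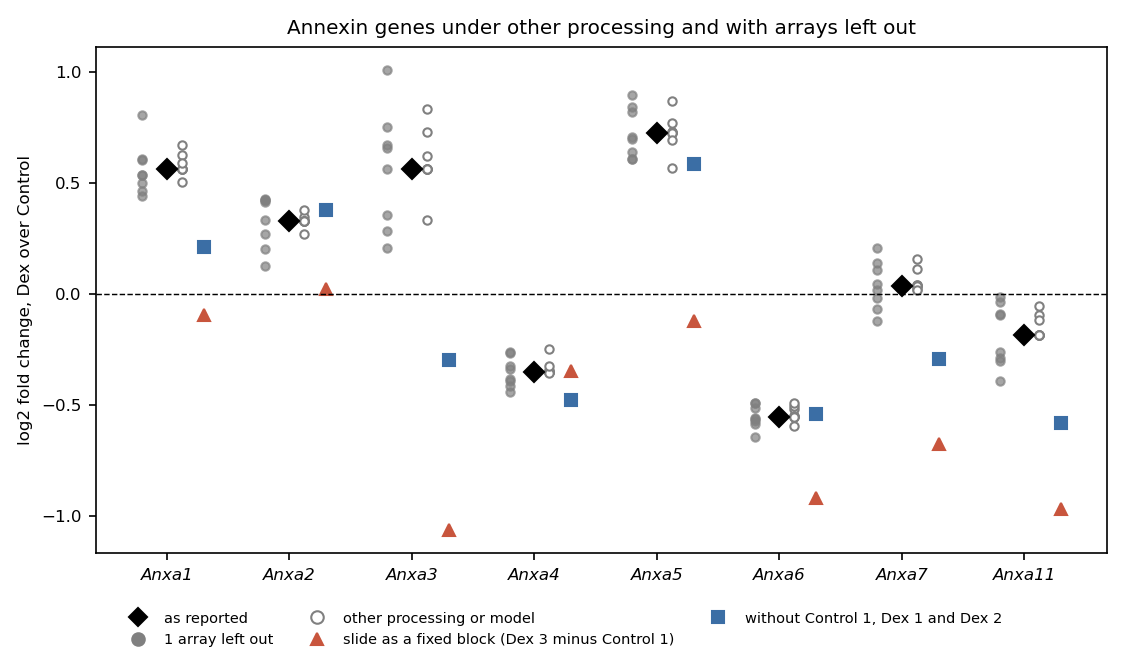
Difference of Dex and Control on the log2 scale (y axis) of the 8 annexin genes (x axis) as reported, with 1 array left out, under other processing or models, with slide as a fixed block, and without Control 1, Dex 1 and Dex 2. Anxa4, Anxa6 and Anxa11 stayed below 0 and Anxa2 above 0 in all of these, and Anxa1, Anxa3, Anxa5 and Anxa7 crossed 0 within slide 1.

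Genes that act with the annexins were counted by list. Of 11 measured S100 and penta-EF-hand calcium sensors, 8 had a higher and 3 a lower mean in Dex. The signal to noise rule was passed by 1 of them (9.09%, beside 6.79% of all probes and 1184 of 13549 genes with a symbol), S100a10. S100a6, the Anxa11 partner, gave 9.48, 8.72, 8.64 and 9.05 in Control and 9.91, 9.36, 9.01 and 9.85 in Dex, with overlap and a difference of 0.56 (adjusted p = 0.55). Pdcd6 differed by 0.30 (adjusted p = 0.58), with all Dex arrays above all Control arrays, as for 1887 of all 41012 probes. S100a11, the Anxa1 partner, was found under no probe name and was not analysed here. Of the formyl peptide receptors, which bind Anxa1, Fpr1 was well above background on 3 Control and 2 Dex arrays and Fpr-rs3 on 1 Control array, so both lay near background. Of the other annexins, Anxa8 was well above background on no array and Anxa13 on 2 of each group.

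Phospholipase A2 releases arachidonic acid, which cyclooxygenases and lipoxygenases turn into eicosanoids. Of 25 measured genes of this pathway 18 had a higher and 7 a lower mean in Dex, with a median of 0.14. Of the 25, 1 was called by limma (4%, beside 0.778% of all probes) and 4 passed the signal to noise rule (16%, beside 6.79%), all higher in Dex. Hpgds, the hematopoietic prostaglandin D synthase, gave 9.75, 9.19, 9.60 and 9.25 in Control and 10.50, 10.63, 10.63 and 10.33 in Dex. It rose by 1.08 (SE 0.18, adjusted p = 0.046), with all Dex arrays above all Control arrays, as for 1887 of all 41012 probes. The call was lost with the replicate block (adjusted p = 0.15), with the 75th percentile scaling (0.19), with slide as a fixed block (0.77) and in each fit that left out 1 array (0.077 to 0.18), while the difference stayed between 0.89 and 1.18 in these fits.

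Alox5ap, the protein that presents arachidonic acid to 5-lipoxygenase, gave 6.75, 6.61, 8.15 and 7.60 in Control and 8.50, 8.47, 9.16 and 9.02 in Dex, a difference of 1.51 (SE 0.37, adjusted p = 0.15). Pla2g7, which hydrolyses platelet-activating factor, gave 5.48, 5.45, 5.12 and 5.37 in Control and 7.26, 7.34, 5.94 and 6.32 in Dex, a difference of 1.36 (SE 0.33, adjusted p = 0.15). Ptges2, a prostaglandin E synthase, gave 5.96, 5.82, 5.62 and 5.99 in Control and 6.79, 7.08, 6.22 and 6.67 in Dex, a difference of 0.84 (SE 0.21, adjusted p = 0.17). All Dex arrays lay above all Control arrays for these 3 genes, as for 1887 of all 41012 probes. The 3 passed the signal to noise rule but not limma's test as fitted. With slide as a random block all 3 passed limma's test (adjusted p of 0.031, 0.018 and 0.020 in this order), and Pla2g7 did with the 75th percentile scaling (0.038). As for Anxa5, the fit with slide as a random block does not separate slide from treatment. With normexp background correction the differences were 1.06, 0.63 and 0.41, and without Control 1, Dex 1 and Dex 2 they were 1.64, 0.82 and 0.63. Within slide 1 they were 2.40, 0.47 and 0.26. Pla2g4a, the cytosolic phospholipase A2, differed by -0.54 (adjusted p = 0.72), and Ptgs2, the inducible cyclooxygenase, by -0.42 (adjusted p = 0.87).

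Exposure of phosphatidylserine, the ligand of Anxa5, depends on scramblases and flippases. Of 10 measured genes 4 had a higher and 6 a lower mean in Dex, and 1 passed the signal to noise rule (10%, beside 6.79% of all probes). Plscr3, a mitochondrial scramblase, gave 10.19, 10.14, 10.26 and 10.47 in Control and 9.94, 10.01, 9.83 and 9.92 in Dex. All Dex arrays lay below all Control arrays, and the difference of -0.34 (SE 0.14, adjusted p = 0.46) passed the signal to noise rule alone. Xkr8, the caspase-activated scramblase, differed by 0.38 (adjusted p = 0.68). The flippase Atp8a1 had the largest difference of the list, 1.06 (adjusted p = 0.62, and 0.16 with the replicate block). The groups overlapped, and Dex was higher in 4 of 4 same-numbered pairs.

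**Figure D4:**
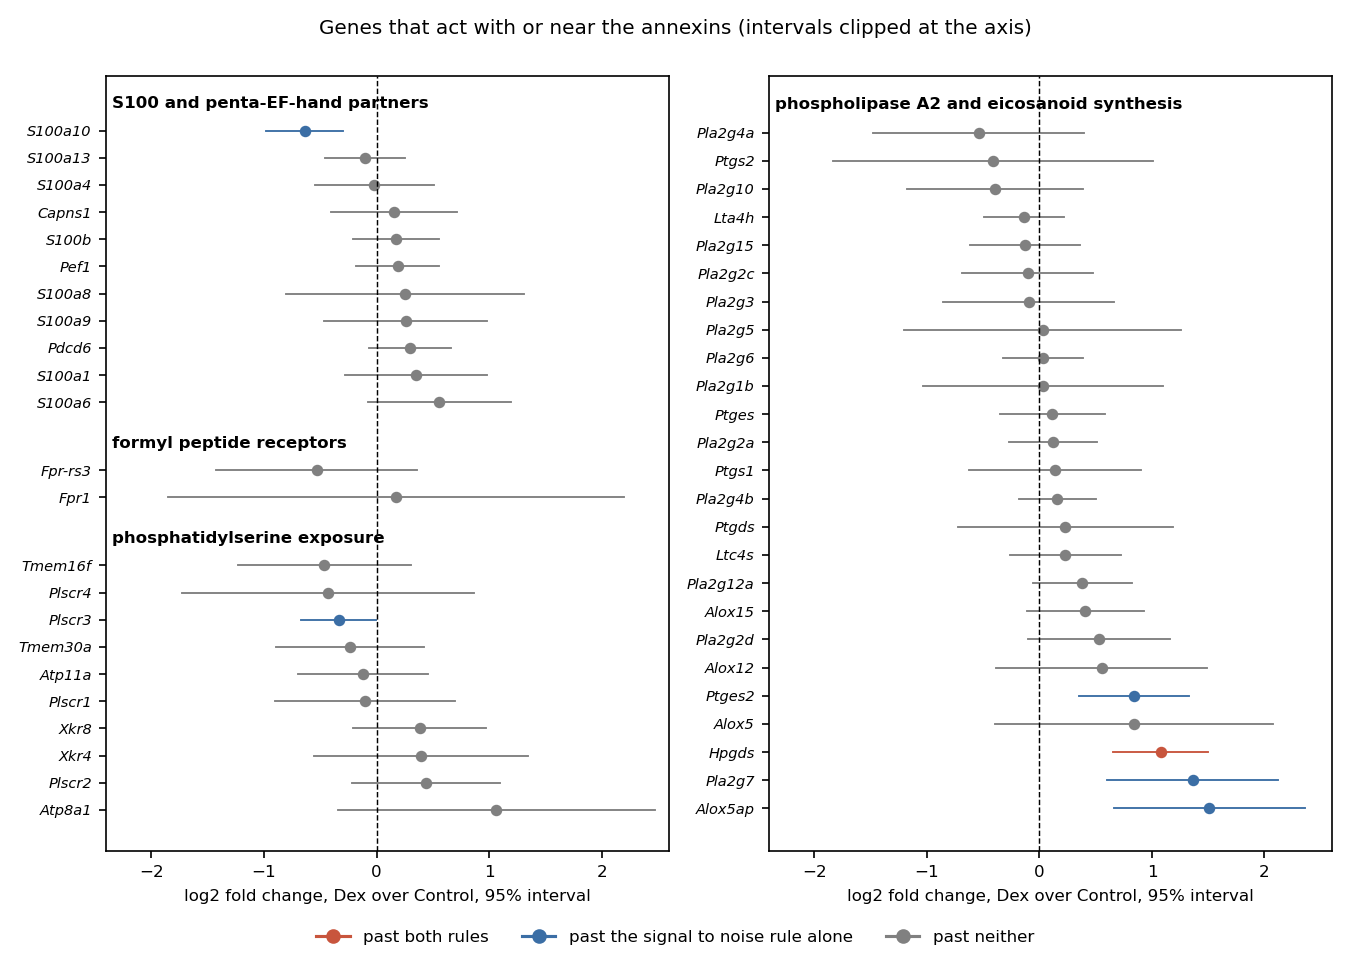
Difference of Dex and Control on the log2 scale with its 95% interval (x axis) for the brightest probe of each measured partner, receptor, lipid exposure and eicosanoid gene (y axis). Hpgds passed both rules, S100a10, Plscr3, Ptges2, Pla2g7 and Alox5ap passed the signal to noise rule alone, and the others passed neither.

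Glucocorticoid target genes set the scale of the response in these cultures. Of 11 measured, 6 were called by limma (54.5%), all higher in Dex, and 8 passed the signal to noise rule (72.7%), beside 0.778% and 6.79% of all probes. Tsc22d3 rose by 3.59, Ddit4, an inhibitor of mTOR, by 3.73, Dusp1, a MAP kinase phosphatase, by 3.05, Klf9, a Krüppel-like transcription factor, by 1.98, Fkbp5, a chaperone of the receptor, by 1.73 and Nfkbia, an inhibitor of NF-kappaB, by 1.41, with adjusted p of 0.0064 or less. With the replicate block Nfkbia had an adjusted p of 0.067 and the other 5 kept their calls. Per1, a clock gene, differed by 0.73 and Sgk1, a kinase, by -1.32, and both passed the signal to noise rule alone. Cebpd (0.68), Bcl6 (-0.19) and Zfp36 (-0.46) passed neither rule. The same pairing within slide 1 gave 3.75 for Tsc22d3 and 3.55 for Ddit4, where it gave -0.093 for Anxa1 and -0.12 for Anxa5. This pairing is 1 array of each group, and its median over all probes was -0.092.

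Over 8930 other genes well above background on all 8 arrays, those whose signal followed Anxa1 most closely over the 8 arrays were ORF19 (Pearson r = 0.99), Il12rb1, a subunit of the interleukin 12 receptor (0.97), Zfp236 (0.97), Zfp688 (0.97) and Defa5 (0.96). Those that followed Anxa5 were Nolc1 (0.99), Itpkb, an inositol trisphosphate kinase (0.99), Mcpt8l3 (0.99), Pdxk (0.99) and Car2 (0.98). These were the highest of many correlations over few arrays that share slide and treatment, and are a description.

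RefSeq windows from 250 bases before to 50 bases after the start of transcription (build GRCr8) were on hand for 7 of the 8 genes, all but Anxa6. The half-site AGAACA of the glucocorticoid response element was searched on both strands and occurred in 0 of these 7 and in 6923 of all 33469 windows, or 20.7%. This says only that these letters are not in these windows.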

How the data were processed

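Total RNA of 4 Control and 4 Dex thymocyte cultures was labeled with Cy3 and hybridized to 1-color arrays. The deposited scanner output holds each spot's processed intensity from Feature Extraction 9.5.3.1 at its 1-color defaults, which the authors did not normalize between arrays, and 0 or 1 flags, a score that the software gives each spot for background, saturation and outliers. A second deposited table holds log2 values after quantile normalization and median polish over the spots of a probe. These steps were repeated from the intensities without the 767 spots flagged as outliers, which left 16 missing values, and each array's values correlated with the deposited table at 0.999999 or more. The number of value columns without a sample was 0.

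limma (version 3.58.1, R version 4.3.3) was fitted over all 41012 probes (lmFit, eBayes) as a two-sided test with no block, and p-values were adjusted by Benjamini-Hochberg across the array. The study's signal to noise statistic divides the difference of the Dex and Control means by their summed SDs. Its one-tailed p was taken here from the 70 ways to assign the arrays, pooled across probes, whereas the study used a set number of permutations over samples and probes, so the null distribution may not be the same. No filter on dim probes was used in either. The accessions of all 8 annexins gave the same symbol in the RefSeq table (GRCr8), which was used for names only.

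Named are all annexin probes, the genes of each pathway list that passed either rule, S100a10, and the 5 genes most like Anxa1 and like the annexin with the largest difference. Others named in the text were chosen after their values were seen. Of the probes that the array named Ela2, A_44_P405177 is Cela2a in the RefSeq table and was left out, while A_44_P164044 stands for Ela2 in the neutrophil list, and 1 gene of the phosphatidylserine list is not reported here. The members, lists and tests were chosen with earlier results of these data known.

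The labels number the arrays of each group 1 to 4. After each group's mean was subtracted, the Control and Dex array of a number correlated at 0.40, 0.13, 0.55 and 0.18. Each value was over 0.1, and same-numbered arrays were regarded as pairs. The labels do not state this pairing, and correlations of differently numbered arrays are not set beside these values. The pairing is therefore an assumption. The differences and calls given are still from the fit without the block, and the value with the replicate block stands beside a call that it changed. Arrays of a group correlated at up to 0.990, and whether any came from the same preparation was not tested. Alternatives were the 75th percentile scaling, normexp background correction (offset 50), a filter on dim probes, the deposited table, outlier spots kept, the replicate block, slide as a fixed or random block, each array left out, all probes of a gene averaged and, added after the data were seen, the arrays with under 75% of probes above background left out. The procedures were tested on simulated data. The number of arrays limits the precision, and low signals near background have less certain differences.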

Additional observations from a re-analysis of the deposited data

Results flagged for a closer look

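The second Anxa6 probe, A_44_P996080, on Control 3 lay apart from the other Control arrays. The Control arrays gave 8.57, 8.55, 8.23 and 8.52, and the distance of Control 3 from its closest neighbour made up 0.848 of their range. In all 42 groups of 4 arrays were examined in this way, over the 15 annexin probes and the partner genes that passed a rule, and chance marks about 1 in 20 groups. Without Control 3 the brighter Anxa6 probe gave -0.64, and Anxa6 still passed the signal to noise rule.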

How the results depend on the processing

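In 144 limma fits of an annexin gene under an alternative, 134 kept the direction and the side of the threshold, 9 changed sign and 1, Anxa5 with slide as a random block, passed the threshold. Some of these could not change the direction. The replicate block and the filter on dim probes return the difference of the main fit, as does averaging for Anxa2 and Anxa11, each read by 1 probe. The deposited table and outlier spots kept gave nearly the same values, so the count is no measure of stability. Slide as a fixed block leaves only Dex 3 against Control 1, a difference with a median of -0.092 over all probes. The sign turned in that fit for Anxa1 (-0.093), Anxa3 (-1.06), Anxa5 (-0.12) and Anxa7 (-0.68). It turned for Anxa7, whose value was 0.038, without Control 3 (-0.019), Dex 1 (-0.070) or Dex 2 (-0.12), and without Control 1, Dex 1 and Dex 2 for Anxa3 (-0.30) and Anxa7 (-0.29). The cause was not tested. With 1 array left out, Anxa1 ranged from 0.44 to 0.80, Anxa2 from 0.13 (without Control 2) to 0.43, Anxa3 from 0.20 to 1.01, Anxa4 from -0.44 to -0.26, Anxa5 from 0.61 to 0.89, Anxa6 from -0.64 to -0.49, Anxa7 from -0.12 to 0.20 and Anxa11 from -0.39 to -0.012. Without Dex 3 the Anxa3 difference was 1.01 and without Dex 1 it was 0.20.

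The number of annexin genes called by limma was 0 in all but 1 alternative, slide as a random block, where it was 1 (Anxa5, consensus correlation -0.24). By the signal to noise rule it was 0 with the 75th percentile scaling and with all probes of a gene averaged, and 1 to 2 with 1 array left out, where Anxa5 was added without Control 1 and Anxa1 without Dex 3. Without Control 1, Dex 1 and Dex 2 it was 1, Anxa5 in place of Anxa6. The replicate block changed no annexin call at the adjusted threshold.

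Over all probes limma called 166 with the 75th percentile scaling (133 higher, 33 lower), 915 with normexp (497 higher, 418 lower), 562 with dim probes left out, 81 with the replicate block, 1 with slide as a fixed block, 1838 with slide as a random block, and 96 to 249 with 1 array left out. Without Control 1, Dex 1 and Dex 2 limma called 4671 and the signal to noise rule 4525, against 2784 with all arrays. With 1 array left out that rule called 1983 to 2882. Signal over background limits Anxa3 most, since its dimmest probe was not well above background on 3 of the 8 arrays.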

Other observations

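In Anxa3, Anxa5, Anxa7 and Anxa11, 4 of the 8 genes, arrays 1 and 2 lay above arrays 3 and 4 in the Control group and again in the Dex group. Of 13547 genes with a symbol and no missing value, 2544 (18.8%) had this order. For Anxa7 the lower of Dex 1 and Dex 2 was 10.64 and the higher of Dex 3 and Dex 4 was 10.01, while the Control arrays spanned 10.11 to 10.49. The split of the arrays was seen in the data and is no group of the study, and its part in the Dex against Control differences was not tested. Anxa1, Anxa2, Anxa4 and Anxa6 did not have this order.

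The erythroid markers, which whole thymus can hold through blood, averaged 6.50 to 7.75 in Control and 6.99 to 8.12 in Dex. Of these 4 of 4 had a higher mean in Dex with 0 called by limma, 0 at an unadjusted p under 0.05 and 0 by the signal to noise rule. With the replicate number as a block Alas2 alone had an unadjusted limma p under 0.05 (0.013). Of 10 stromal markers 7 had a higher and 3 a lower mean in Dex, with a median of 0.58, and 4 were well above background on no array. In this list 10% were called by limma, 20% passed the signal to noise rule and 20% had an unadjusted p under 0.05. Over all probes the shares were 0.778%, 6.79% and 10.6%. Among them Fn1, fibronectin, was called by limma and fell by 2.13, and Pdgfrb, a receptor of pericytes, differed by 1.72 and passed the signal to noise rule. Of 7 endothelial markers 5 had a higher and 2 a lower mean. By the same order of rules 14.3%, 28.6% and 42.9% of them passed. Pecam1 was called and rose by 1.36, with an adjusted p of 0.021 that was 0.11 with the replicate block. Vwf differed by -0.53 and passed the signal to noise rule, and Kdr differed by -0.68. The 4 B cell markers averaged 4.92 to 5.61 in Control and 4.71 to 6.13 in Dex, and the 7 epithelial markers 6.45 to 6.62 and 6.46 to 6.78. Of the 7, 6 had a higher mean in Dex with 0 at an unadjusted p under 0.05, and Cdh1, E-cadherin, differed by -1.18 (adjusted p = 0.11), without overlap, and passed the signal to noise rule. Their part in the annexin values was not tested.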
